A study of Mus musculus with 2 samples.

Results

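The mouse expression array used for these samples carries, beside probes for annotated transcripts, a block of probes for long intergenic noncoding RNAs (lincRNAs), which are recognised by probe names that start with A_30_P. These 16251 spots, each a probe printed once, name 4622 regions, out of 59305 non-control spots and 37897 names in all. The regions are given by chromosome, start and end in mouse build mm9 with a strand letter, F or R, and 12 are given only by the name of an RNA. After spots marked as outliers were removed, 16246 probes of 4621 regions remained. They were compared with 39180 probes whose names start with A_5 or A_66, called gene probes here. Of these, 28125 could be named through RefSeq.

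The RNA was that of LSK cells, which are negative for lineage markers and positive for Sca-1 and c-kit and include the hematopoietic stem cells of the bone marrow. One array held RNA of nondiabetic C57BL/6J mice and the other RNA of C57BL/6J mice made diabetic with streptozotocin (STZ), a toxin of pancreatic β-cells. According to the labels, the mice were female, 3 mice stood behind each array, and amplification started from 8.3 ng of total RNA. The study's text and its reporting form give male mice instead. Xist, an RNA of the inactive X chromosome of female cells, read 11041 on the nondiabetic and 13111 on the diabetic array by its brightest gene probe. The sex of the mice was not tested, and this difference from the labels was not settled here. The age of the mice and the time after STZ are not given in the labels. With 1 array per condition, no difference between nondiabetic and diabetic mice has a replicate check and none was tested, and diabetes cannot be told apart from differences between mice, cell sorts or amplifications. A fold here describes these 2 arrays, and their number limits the precision.

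Long noncoding RNAs are transcribed like messenger RNAs, and many are spliced and polyadenylated, but they have no known protein product. As a class they tend to be less abundant than messenger RNAs and more restricted to particular cell types. Some act on chromatin, such as Xist, which coats the inactive X chromosome, its antisense partner Tsix, and Kcnq1ot1, which silences an imprinted gene cluster. Others build nuclear bodies, such as Neat1 in paraspeckles, or sit in nuclear speckles, such as Malat1.

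The sequences of the lincRNA probes were not used here, and the promoters of 3 named RNAs are shown instead, chosen among those with every lincRNA probe measured on both arrays. Each runs from 250 bases before to 50 bases after the transcription start in RefSeq, build GRCm38.p6 (not the mm9 of the array), on the minus strand. The Malat1 promoter lies at chr19:5802623-5802922, that of Tug1 at chr11:3648765-3649064 and that of Xist at chrX:103483184-103483483. Capitals mark matches, on either strand, to the TATA box motif TATAAA, the CCAAT box motif and the GC box motif GGGCGG.
Malat1: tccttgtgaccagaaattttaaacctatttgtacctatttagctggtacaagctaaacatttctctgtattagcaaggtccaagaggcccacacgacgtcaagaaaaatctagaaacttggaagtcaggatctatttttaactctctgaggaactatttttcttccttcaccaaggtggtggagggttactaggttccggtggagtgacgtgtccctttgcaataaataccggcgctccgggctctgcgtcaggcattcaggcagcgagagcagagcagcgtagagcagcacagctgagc
Tug1: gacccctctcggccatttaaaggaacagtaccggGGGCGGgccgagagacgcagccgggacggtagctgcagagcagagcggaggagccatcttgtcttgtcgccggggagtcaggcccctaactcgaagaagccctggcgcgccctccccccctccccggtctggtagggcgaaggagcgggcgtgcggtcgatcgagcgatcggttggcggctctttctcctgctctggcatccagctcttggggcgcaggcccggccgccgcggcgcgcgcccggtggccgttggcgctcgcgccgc
Xist: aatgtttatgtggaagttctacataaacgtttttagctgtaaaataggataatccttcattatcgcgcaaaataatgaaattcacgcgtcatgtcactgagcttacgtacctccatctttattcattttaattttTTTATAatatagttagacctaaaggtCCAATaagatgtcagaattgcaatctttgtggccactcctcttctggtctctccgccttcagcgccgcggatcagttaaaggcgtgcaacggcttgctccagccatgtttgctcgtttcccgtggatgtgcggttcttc
The 300 bases at Tug1 held 37 CpG dinucleotides, against 10 at Malat1, 15 at Xist and a median of 7 over the 32851 promoters in the reference. The Xist promoter had a match to TATAAA, found in 13.6% of those promoters, and a match to CCAAT, found in 37.4%. The Tug1 promoter had a match to GGGCGG, found in 35.7%, and the Malat1 promoter had no match to the 3 motifs in this window. These matches describe the letters only.

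Most lincRNA probes gave a signal in LSK cells, less often and more dimly than gene probes. The software's flag for strong signals marked 9727 lincRNA probes (59.9%) as well above background in nondiabetic LSK cells and 10036 (61.8%) in diabetic ones. For gene probes the shares were 63.6% and 64.7%. Both arrays detected 8975 lincRNA probes, the nondiabetic array alone 752 (4.63%), the diabetic array alone 1061 (6.53%) and neither 5458. Of gene probes, 3.96% were detected on the nondiabetic array alone and 5.04% on the diabetic array alone, so both classes had more probes on the diabetic side. By a weaker flag that asks only for a positive and significant signal, 79.8% and 81.4% of lincRNA probes were detected, beside 80.2% and 81.3% of gene probes, so the classes differed little by this flag.

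The median intensity of lincRNA probes was 23.1 on the nondiabetic and 24.7 on the diabetic array, against 34.0 and 36.6 for gene probes. Where both arrays were well above background, the medians were 90.5 and 97.0 for lincRNA probes and 141.6 and 154.5 for gene probes. The lowest intensity that counted as well above background was 10.2 on the nondiabetic and 10.1 on the diabetic array, and the median of the 308 negative control spots was 2.35 and 2.32. Their 95th percentile was 2.63 and 2.58, but the brightest control spot read 466 on the nondiabetic and 6.84 on the diabetic array. No lincRNA spot was saturated (0 on each array). Another set, chosen after the data were seen, was dimmer still: of 1342 gene probes that RefSeq assigns to long noncoding RNA genes, the arrays detected 43.5% and 44.0%.

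**Figure D1:**
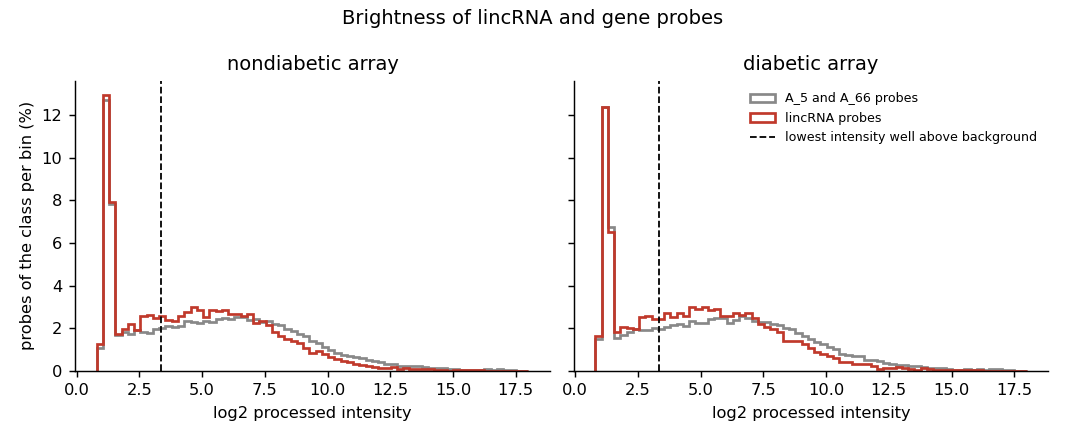
Distribution of log2 processed intensity for the 16246 lincRNA probes (red) and 39180 gene probes (grey) on the nondiabetic (left) and diabetic (right) array, as the percentage of the class in each bin. The dashed line marks the lowest intensity well above background, 10.2 and 10.1, and right of it the lincRNA probes lie to the left of the gene probes.

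Regions were counted as detected where any of their probes was, which by construction favours higher shares than for single probes. At least 1 probe was well above background for 3777 of the 4621 loci (81.7%) in nondiabetic LSK cells and for 3858 (83.5%) in diabetic LSK cells. A locus here is 1 region on 1 strand. For 646 loci no probe was detected on either array. The probes of a locus were seldom all detected or all dim. Of 3395 loci with at least 3 probes, 797 (23.5%) had every probe well above background on both arrays, 572 (16.8%) had none, and 2026 (59.7%) had some.

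Detection also differed with the length of the region, its strand annotation and its chromosome. With loci in 4 equal groups by length, 44.9% of probes of the shortest group, whose median length was 577 bases, were well above background on both arrays, against 56.0%, 60.5% and 56.2% of the longer groups. Probes at the 1067 positions annotated on both strands were detected on both arrays in 58.7% of cases, and probes at the 2472 positions annotated on 1 strand in 50.05%. Strand F and strand R did not stand apart, with 54.8% and 55.7% of probes detected. Across chromosomes the share ran from 47.1% on chromosome 18 to 64.8% on chromosome 17. The share of measured probes that were at least 2-fold different ran from 12.4% on chromosome 7 to 26.1% on chromosome 19, which has only 188 measured probes, beside 18.1% of all measured probes of the array.

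The brightest lincRNA probes differed little between nondiabetic and diabetic LSK cells. Probe A_30_P01018010, in the locus chr17:39960567-39992817 (R), read 119061 on the nondiabetic and 124942 on the diabetic array, in units of intensity. The log2 ratio of diabetic over nondiabetic, after each array was scaled to its 75th percentile (168 and 182), was -0.05. The other 4 probes of this locus lay between 1071 and 27135 on the nondiabetic array, with log2 ratios from -0.01 to 0.28. A pair of the 5 brightest came from nearby regions of chromosome 19. A_30_P01031754 in chr19:5801802-5802597 (R) read 71363 and 86972, and A_30_P01031405 in chr19:5795690-5797464 (F) read 66843 and 74106. The dimmest of the 6 probes of these 2 loci, A_30_P01028215, still read 12756 and 16331, and the 6 log2 ratios ran from -0.02 to 0.24. A_30_P01025541 in chr2:151992806-152025456 (F) read 70595 and 62135, a log2 ratio of -0.30, while another probe of that locus, A_30_P01031058, read 2.45 and 8.10. The last of the 5, A_30_P01020800 on chromosome 18, read 71657 and 70232, and the other 2 probes of its locus were not well above background on either array. Probes of a single locus thus spanned almost the whole range of the scanner, and a probe's intensity is not the level of its locus.

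Over the 8975 lincRNA probes well above background on both arrays, 805 (8.97%) were higher in diabetic LSK cells by 2-fold or more, beside 8.96% of all 32506 measured probes of the array. At least 2-fold lower were 905 (10.1%), beside 9.12% of all probes. At 4-fold the counts were 182 higher (2.03%) and 264 lower (2.94%), against 1.86% and 2.15% of all probes and 1.80% and 1.84% of gene probes. At 2-fold, both directions together held 19.1% of lincRNA probes, 17.7% of gene probes and 18.1% of all, so this lincRNA share was near the background. It lay just below the 19.2% of gene probes with an NM_ accession, which name messenger RNAs, and above the 13.8% of RefSeq long noncoding RNA probes. The median log2 ratio was -0.05 with an SD across probes of 0.89, beside -0.01 and 0.83 for gene probes. In RNA of many cells, fewer cells with an RNA and less RNA per cell cannot be told apart.

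Signal strength went with these shares. When all measured probes were split into 3 equal groups by mean signal, 21.8% of the dimmest, 23.4% of the middle and 8.51% of the brightest lincRNA probes were at least 2-fold different, against 23.3%, 24.2% and 7.12% of gene probes. At equal signal the lincRNA share was thus slightly lower in the dimmer groups and slightly higher in the brightest. Spot-to-spot error could be read only from gene and other repeated probes, since 0 lincRNA probes were printed repeatedly. Over 237 probes with at least 5 spots, the median SD of the log2 ratio was 0.25 in the dimmest, 0.13 in the middle and 0.07 in the brightest group.

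**Figure D2:**
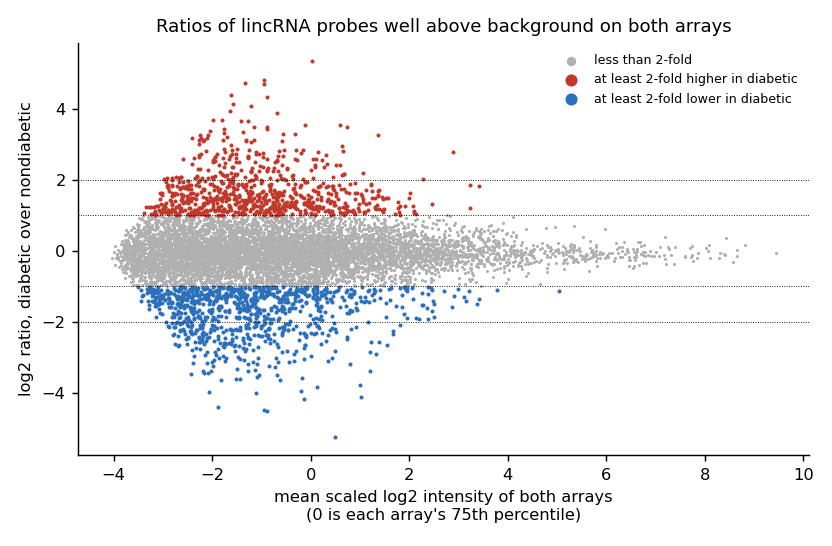
Log2 ratio (diabetic over nondiabetic) against mean scaled log2 intensity for the 8975 lincRNA probes well above background on both arrays, where each point is 1 probe and dotted lines mark 2-fold and 4-fold. The 805 probes at least 2-fold higher are red, the 905 at least 2-fold lower are blue, and both become sparse to the right, where probes are bright.

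The steepest rises came from a single position of chromosome 2, chr2:84344350-84370075, which is probed on both strands. Probe A_30_P01025035 (R) rose from 27.1 to 1176 (log2 ratio 5.32), and A_30_P01029766 (F) rose from 16.6 to 500.03 (log2 ratio 4.80). Probes A_30_P01031895 (R), with 10.7 and 1225, and A_30_P01030054 (F), with 7.12 and 949, were well above background on the diabetic array alone and were at least 105-fold and at least 85.6-fold higher, the largest bounds of all lincRNA probes. A bound compares the bright array, after scaling, with whichever is higher on the other array, the probe itself or the dimmest signal that counts as well above background. A_30_P01017475 (R) and A_30_P01024374 (F) rose as well, with log2 ratios of 3.47 and 2.20. The remaining 4 probes of the position did not share the rise: A_30_P01027996 (R) was bright on both arrays, at 885 and 993, probes A_30_P01017817 and A_30_P01021280 (F) had log2 ratios of -0.25 and 0.33, and A_30_P01018917 (R) was at 12.8 and 4.15, above background in nondiabetic LSK cells alone.

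The next rises by size were shared by their loci to different degrees. A_30_P01022553 in chr7:88668948-88678046 (F) rose from 13.0 to 372, a log2 ratio of 4.72, where another probe of the locus, A_30_P01032984, rose from 19.3 to 46.6. A_30_P01029179 in chr13:51248372-51259297 (R) rose from 17.2 to 482, a log2 ratio of 4.69, while the 3 other measured probes of that locus had log2 ratios of 0.29, 0.46 and 0.67. In chr4:140609589-140614789 (R), A_30_P01020469 rose from 12.04 to 274. Probes A_30_P01031606 and A_30_P01027509 of the same locus read 2.37 and 2.32 on the nondiabetic and 124 and 68.9 on the diabetic array, where alone they were well above background, and A_30_P01028621 had a log2 ratio of -0.45.

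The largest fall was in chr3:88323145-88335770 (F), a locus with 9 probes. A_30_P01028643 fell from 1444 to 42.2, a log2 ratio of -5.22. A_30_P01031698 fell from 1421 to 89.7 and A_30_P01023340 from 571 to 40.5. Against these 3 falls, A_30_P01031925 read 1154 and 1266, a log2 ratio of 0.02, and A_30_P01024463 rose from 15.0 to 36.3. The other 3 measured probes of the locus had log2 ratios from 0.25 to 0.87. The locus therefore held a bright probe with a ratio near 0 beside the largest fall of the lincRNA set.

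In the other loci with large falls, the probes went the same way. All 5 probes of chr3:21964899-21974524 (R) were lower in diabetic LSK cells, led by A_30_P01018336, which fell from 431 to 20.9, a log2 ratio of -4.49. Its neighbours A_30_P01030305 and A_30_P01029822 had log2 ratios of -2.71 and -2.15, and 2 probes were detected in nondiabetic LSK cells alone. On chromosome 18, A_30_P01027133 fell from 406 to 20.0, and the other 2 probes of its locus, A_30_P01021902 and A_30_P01024640, read 460.4 and 138 in nondiabetic LSK cells but 2.52 and 2.18 in diabetic LSK cells, at least 49.7-fold and at least 14.9-fold lower. In chr11:97305584-97309994 (F), A_30_P01021703 fell from 644 to 39.0 and A_30_P01022762 from 212 to 106. At chr1:183142656-183163206, probes of both strands fell: on F, A_30_P01018437 from 946 to 174 and A_30_P01024781 from 208 to 10.8, and on R, A_30_P01017445 from 1233 to 98.8, while A_30_P01022610 (R), with 315 and 2.97, was at least 34.0-fold lower. The last probe on R, A_30_P01031413, had a log2 ratio of -0.86.

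The remaining large bounds stood beside probes with smaller differences. A_30_P01019906 in chr6:129151512-129208737 (F) read 2.37 and 253, at least 22.8-fold higher, whereas the 9 other probes of that locus had log2 ratios between -0.61 and 0.78. A_30_P01031236 in chr17:3198868-3394643 (R) read 460.2 and 2.80, at least 49.6-fold lower, and 4 of the 7 other measured probes there were at least 2-fold lower.

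Whether probes of a locus move together was described over the 2266 loci with at least 2 measured probes. Their brightest and next probe had log2 ratios of the same sign in 61.0% of loci, and the correlation across loci was 0.40 by Pearson's r and 0.35 by Spearman's rho. Some of these loci overlap on the same strand. With overlapping loci merged, 1922 remained, with 60.2% of the same sign and an r of 0.345. Over 2933 transcripts with at least 2 measured gene probes, the share was 56.4%, with an r of 0.16 and a rho of 0.15. Where the brightest lincRNA probe was at least 2-fold different, in 342 loci, the next probe lay on the same side in 244 (71.3%) and also passed 2-fold in 146 (42.7%). For gene probes these were 251 (58.1%) and 110 (25.5%) of 432. Differences between loci held 31.0% of the variance of the log2 ratio for lincRNA probes and 16.5% for gene probes, while for the mean log2 signal the shares were nearly equal, 37.9% and 37.4%. Probes of a locus share both arrays and may overlap in sequence, which was not tested, so these figures are descriptions.

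The relation between probes of a lincRNA locus was closer where the second probe was brighter. With the next probe in the dimmest, middle and brightest of the 3 signal groups, r was 0.34, 0.46 and 0.51, over 985, 815 and 466 loci. For gene probes r was 0.10, 0.21 and 0.26. In the brightest group, 19 of 25 lincRNA loci whose first probe passed 2-fold had a second probe past 2-fold on the same side.

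**Figure D3:**
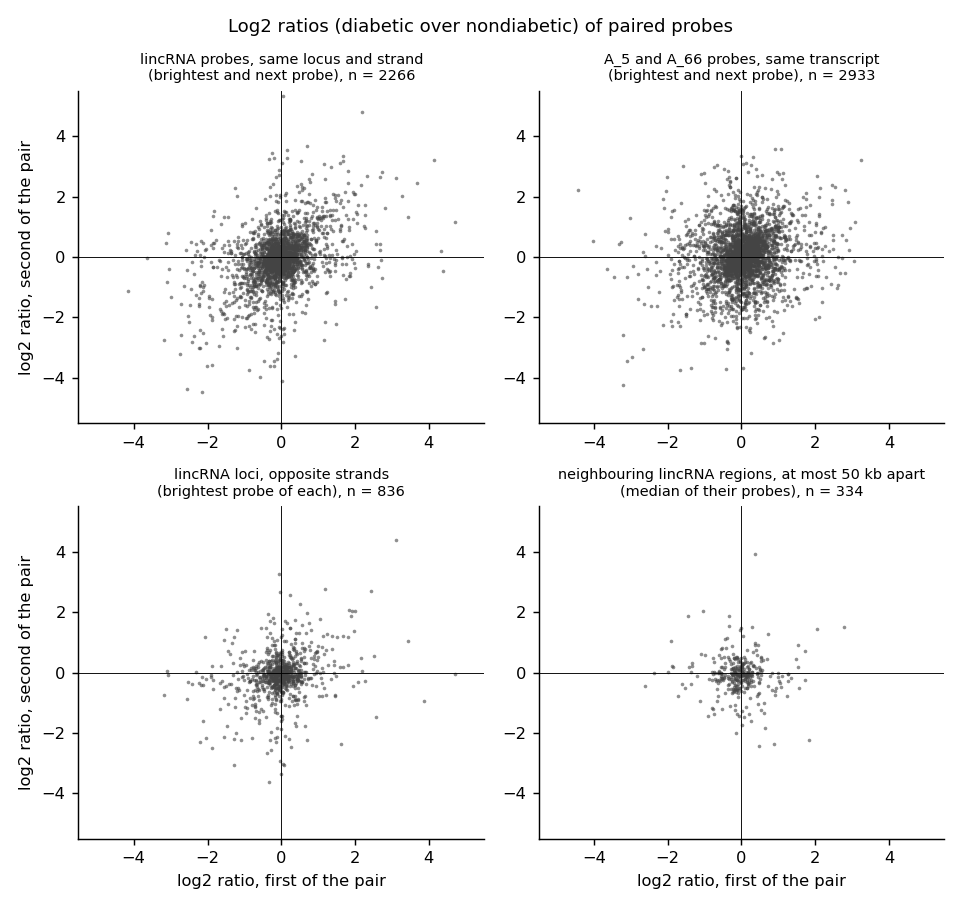
Log2 ratios (diabetic over nondiabetic) of paired probes: brightest and next probe of 2266 lincRNA loci (r 0.40) and of 2933 transcripts read by gene probes (r 0.16), brightest probes of opposite strands at 836 positions (r 0.26), and medians of 334 pairs of neighbouring lincRNA regions at most 50 kb apart (r -0.03). Each point is 1 pair, and the cloud leans upwards to the right most clearly for probes of the same lincRNA locus.

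Opposite strands of a position shared part of their ratios, and neighbouring regions shared none that could be seen. At 836 of the 1067 positions annotated on both strands (78.4%), both strands had a measured probe, at 96 only F, at 101 only R and at 34 neither. The brightest probes of the strands had ratios of the same sign in 58.4% of positions, with an r of 0.26 and a rho of 0.23, and at 37 positions both were at least 2-fold different, of which 16 were higher on both strands, 14 lower on both and the rest opposed. The sources do not say that the labelling, with a kit made for genomic DNA, kept the strand of the RNA, so signals of the 2 strands cannot be told apart. Between neighbouring regions the share of equal signs was 44.5% at gaps of up to 10 kb (146 pairs), 49.7% up to 50 kb (334 pairs) and 50.04% beyond 200 kb (1223 pairs), with r between -0.07 and 0.01.

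Loci whose measured probes all passed 2-fold on the same side numbered 41 with a rise (1.81%) and 44 with a fall (1.94%) among those 2266. Of the 1380 loci with at least 3 measured probes, 18 rose and 24 fell on every probe, 91 and 100 had a median ratio past 2-fold, and 80 held probes past 2-fold in both directions. Of all single measured probes of the array, 8.96% were higher and 9.12% lower by 2-fold or more. Transcripts with several gene probes were not counted in this way, so these locus counts have no comparison. Overlapping loci were counted separately here, so a region can enter more than once.

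Ranked by the smallest change among its measured probes, chr1:4889810-4890012 (R) came first among the rising loci. Its probes A_30_P01024537 and A_30_P01027410 rose from 22.9 to 163 and from 14.5 to 111, log2 ratios of 2.72 and 2.82, and A_30_P01031920, at 5.70 and 83.4, was at least 7.53-fold higher. In chr11:58136882-58143829 (R), A_30_P01024165 rose from 45.2 to 314 and A_30_P01031077 from 17.6 to 119, and A_30_P01029729 was dim on both arrays. The probes of chr15:97925615-97926199 (F) disagreed outside the measured pair: A_30_P01023087 rose from 11.97 to 165 and A_30_P01028243 from 13.6 to 80.6, but A_30_P01031503, with 14.2 and 2.23, was detected in nondiabetic LSK cells alone. In chr1:15834778-15843077 (R) and chr17:84359207-84360270 (R), every probe was higher in diabetic LSK cells, with log2 ratios of 2.67 and 2.32 in the first and 2.14 and 1.93 in the second.

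Among the loci that fell, chr9:9024733-9041933 (F) had 7 probes. There, A_30_P01020225 fell from 126 to 20.9 and A_30_P01021147 from 85.9 to 15.7, and 3 further probes, A_30_P01022989, A_30_P01026664 and A_30_P01030814, read 73.9, 63.1 and 138 in nondiabetic LSK cells and 7.66, 2.52 and 2.50 in diabetic LSK cells. In chr10:66627543-66629331 (F), A_30_P01023797 fell from 118 to 19.01 and A_30_P01027083 from 131 to 15.2. In chr17:22422837-22451777 (R), the log2 ratios were -2.37 and -2.62, and the remaining probe, A_30_P01033171, at 116 and 7.12, was at least 12.5-fold lower. In chr5:77227402-77229990 (R), all 3 probes fell, from 119, 176 and 248 to 27.7, 23.5 and 58.5. No probe assigned to these falling loci themselves was brighter in diabetic LSK cells, apart from 2 in the chromosome 9 locus. Those 2 were not well above background on either array.

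**Figure D4:**
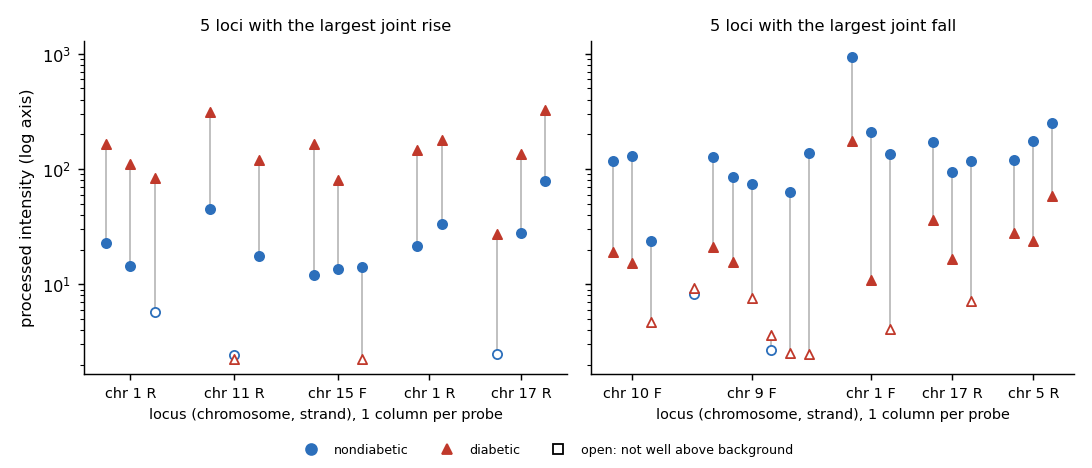
Processed intensity (log axis) of every probe of the 5 loci with the largest joint rise (left) and the 5 with the largest joint fall (right), blue circles for nondiabetic and red triangles for diabetic LSK cells, joined per probe, open where the probe was not well above background. Every filled red triangle lies above its blue circle on the left and below it on the right.

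Some loci with more probes moved as a block. The following were named after their values were seen. At chr5:77188300-77205150, all 9 probes of both strands rose, 4 on F with log2 ratios from 1.77 to 2.51 and 5 on R with log2 ratios from 1.18 to 2.83. The brightest of them, A_30_P01018120 (R), read 291 in nondiabetic and 716 in diabetic LSK cells. In chr17:86560289-86565864 (F), all 5 probes rose, with intensities from 12.8 to 242 in nondiabetic and from 90.3 to 839 in diabetic LSK cells, which overlap across probes although each probe was higher on the diabetic array. The 5 probes of chr4:131734714-131741964 (F) rose with log2 ratios from 1.20 to 2.14, whereas the brightest R probe of this position had a log2 ratio of -0.43.

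Falling blocks included the brighter loci. In chr5:125190100-125209625 (F), 5 probes read from 1046 to 2275 in nondiabetic and from 380.3 to 1013 in diabetic LSK cells and log2 ratios ran from -1.70 to -1.29. The brightest R probe of this position rose instead, with a log2 ratio of 1.19. In chr3:51784862-51793999 (F), 3 probes read from 1149 to 1716 and from 365 to 492. All 7 probes of chr2:75444518-75497268 (F), the locus with the most measured probes among those that fell throughout, had log2 ratios from -2.84 to -1.34. The brightest R probe of this position had a log2 ratio of -0.21. At chr16:89961600-89971725, chr12:45415565-45423519 and chr6:148162552-148176577, every measured probe of both strands fell. On chromosome 16 the F probes fell with log2 ratios from -1.82 to -1.67 and the R probes from -1.54 to -1.20, the narrowest spread of these positions.

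Loci detected on 1 array only were few, and transcripts read by gene probes were not counted in this way. Of the 3395 loci with at least 3 probes, 8 had at least 3 well above background in nondiabetic and none in diabetic LSK cells. The reverse held for 12. The count of 4 such probes was reached by 1 locus, TSIX. Among those seen in diabetic LSK cells, the probes of chr2:78767440-78768949 (F) read 84.7, 59.4 and 38.5, against 7.95, 6.74 and 2.41 in nondiabetic LSK cells. The probes of chr17:45524689-45525320 (R) showed the opposite, with 253, 103 and 32.3 in nondiabetic and 4.72, 2.19 and 10.2 in diabetic LSK cells.

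Among the 12 RNAs that the array design gives by name, NEAT2, NEAT1, KCNQ1ot1, TUG1 and XIST were measured on every probe, and HOTAIR, PINC and BRN1-A on 1 probe each. Together with 3 regions given without a strand they have 70 probes, of which 38 were well above background on both arrays, 7 on the nondiabetic alone, 4 on the diabetic alone and 21 on neither. Of the 38, 4 rose and 3 fell by at least 2-fold, shares near the 8.96% and 9.12% of all measured probes of the array. These RNAs were singled out after their values were seen.

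NEAT2, an older name of Malat1, held the brightest probe among the RNAs given by name. Its probes A_30_P01031072, A_30_P01020325 and A_30_P01019221 read 3867, 2252 and 1236 in nondiabetic and 4599, 2702 and 1518 in diabetic LSK cells. Their log2 ratios were 0.13, 0.15 and 0.18, close to each other. The far brighter probe A_30_P01031754 (71363 and 86972) lies in chr19:5801802-5802597 of mm9. These coordinates are close to those of the Malat1 promoter, chr19:5802623-5802922, in GRCm38.p6. Since the builds differ, whether that probe reads Malat1 was not tested. The 5 NEAT1 probes read from 281 to 1243 and from 385 to 1539, with log2 ratios from -0.06 to 0.66. The log2 ratios of the 5 KCNQ1ot1 probes ran from -0.28, on the brightest, A_30_P01026203, to 0.69 on the dimmest, A_30_P01028756.

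TUG1, a long noncoding RNA that takes part in chromatin regulation, was the most uniform of the RNAs with 5 measured probes. The probes read 1290, 966, 507, 493 and 298 in nondiabetic and 1081, 676, 407, 398 and 243 in diabetic LSK cells. All 5 log2 ratios were negative, from -0.63 to -0.37, and none reached 2-fold. The gene probe A_51_P119401 of Tug1, printed 10 times, had a log2 ratio of -0.38, whereas the 2 dimmer Tug1 gene probes, A_55_P2123716 and A_52_P599162, had ratios of 0.80 and 1.20.

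XIST was bright on both arrays, with its probes split by brightness. A_30_P01020783 and A_30_P01030803 read 2633 and 2255 in nondiabetic and 3749 and 3072 in diabetic LSK cells, log2 ratios of 0.39 and 0.33. A_30_P01022001 fell from 599 to 243 and A_30_P01023652 from 302 to 135, log2 ratios of -1.42 and -1.28, and A_30_P01032945 lay between these pairs, at -0.22. The 2 Xist gene probes, A_52_P300376 and A_52_P113537, had ratios of 0.13 and -0.10.

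TSIX, which is transcribed antisense to Xist, was detected in nondiabetic LSK cells only. In those cells 4 of its 5 probes were well above background, at 66.1, 50.6, 25.2 and 19.9, and in diabetic LSK cells 0 of 5 were, at 2.51, 9.82, 2.59 and 2.11 for the same probes. The bounds were at least 7.13-fold, 5.45-fold, 2.72-fold and 2.15-fold lower. Since the sources do not say that strand was kept, TSIX probes may also report RNA of the opposite strand, which was not tested.

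**Figure D5:**
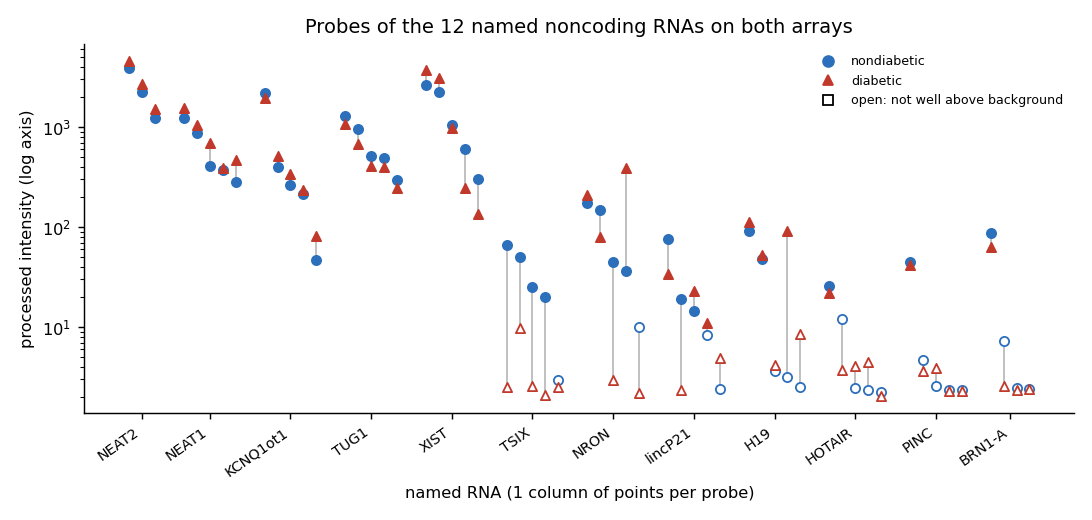
Processed intensity (log axis) of each probe of the 12 named noncoding RNAs, blue circles for nondiabetic and red triangles for diabetic LSK cells, joined per probe, open where the probe was not well above background. NEAT2, NEAT1, KCNQ1ot1, TUG1 and XIST are measured on every probe, and 4 TSIX probes are filled in nondiabetic and open in diabetic LSK cells.

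For H19, an imprinted RNA of fetal tissues and stem cells, the probes did not agree. A_30_P01021588 read 3.17 in nondiabetic and 90.4 in diabetic LSK cells, at least 8.16-fold higher, while A_30_P01025068 and A_30_P01028827 had log2 ratios of 0.16 and 0.02 and the other 2 probes were dim on both arrays. The H19 gene probe, A_55_P1961127, stayed at the level of background, at 2.36 and 2.73. NRON, a noncoding repressor of the transcription factor NFAT, had log2 ratios from -0.999 (A_30_P01025636) to 3.28 (A_30_P01019153, from 36.6 to 385), and A_30_P01023721 read 44.4 in nondiabetic LSK cells and 2.92, not well above background, in diabetic ones. The 2 measured probes of lincP21, a p53-responsive RNA, were at -1.27 (A_30_P01021484) and 0.53 (A_30_P01023403). HOTAIR, which is transcribed from the HOXC cluster, PINC and BRN1-A each had 1 measured probe, with log2 ratios of -0.35, -0.22 and -0.57.

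The regions without a strand behaved differently from each other. Of 5 probes at chr17:12941161-12944859, A_30_P01018135, A_30_P01022641 and A_30_P01027065 rose, from 84.5 to 229, 14.6 to 52.5 and 24.7 to 69.2, and A_30_P01022766 was detected in diabetic LSK cells alone, while A_30_P01025039 had a log2 ratio of -0.47. The regions on chromosomes 3 and 6 had 1 and 0 probes measured on both arrays.

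Known long noncoding RNA genes read by gene probes gave a further comparison. Of a list of 56, 33 had a probe named through RefSeq, 27 were measured on both arrays and 6 on neither. By the brightest probe, 1 rose at least 2-fold, Lncpint, a p53-induced RNA, from 100.5 to 239.8, and 1 fell, Crnde, from 155 to 78.6. Among all measured probes 18.1% differed by at least 2-fold in either direction. The second Lncpint probe rose as well, from 53.7 to 152, but the second Crnde probe was well above background on neither array. Other second probes departed from the brightest. That of Firre had a log2 ratio of -1.26 beside -0.08, and that of Pvt1 was at least 9.50-fold lower beside a log2 ratio of -0.29. The Kcnq1ot1 gene probes had log2 ratios of -0.50 and 0.51. The median log2 ratio of the 27 was 0.04, beside -0.02 over all measured probes. Malat1 had a ratio of 0.34 and Neat1 one of 0.73, on the same side as the brightest NEAT2 and NEAT1 probes. The snoRNA host gene Snhg1 read 2463 and 1841, a log2 ratio of -0.54, and the microRNA host gene Mir17hg read 881 and 838.

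Markers of the sorted cells and of other cells are given beside these ratios. Kit read 4635 in nondiabetic and 4735 in diabetic LSK cells, Ly6a, which encodes Sca-1, 475 and 701, and Cd34 3888 and 4902. The 7 stem and progenitor markers were all measured, and Mecom alone was at least 2-fold different, lower by its brightest probe (182 and 86.1) but not by the other. Of 17 markers of mature and stromal cells, 16 had a probe, 11 were measured on both arrays and 2 of these, Hba-a1 and Pecam1, rose by 2-fold or more. Of all measured probes, 8.96% were higher and 9.12% lower by that margin. Over the brightest probes of all 16 markers, intensities summed to 39636 in nondiabetic and 44991 in diabetic LSK cells, mostly from Itgam. Ms4a1, Cd8a and Cdh5 were well above background on neither array, while by their brightest probes Cd3e read 238 and 198, Itgam 34686 and 35189, Hba-a1 1984 and 4967 and Pecam1, an adhesion molecule of endothelium and blood cells, 162 and 936. The other Itgam probes were far dimmer and lower in diabetic LSK cells, at 284 and 142 and at 111 and 49.2, log2 ratios of -1.12 and -1.30. The part of other cells in the lincRNA ratios was not tested.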

How the data were processed

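The 2 arrays were read by the authors with Agilent Feature Extraction 11.5.1.1, and the deposited intensity is the processed signal of each spot, corrected for background within its array. The deposited table of processed values equals this intensity times 1 constant per array, and it was used as an alternative. The grid of the array refers to mm9, and coordinates are printed as given there.

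Spots that the software flagged as non-uniform or as population outliers were removed from both arrays (4 lincRNA spots by flags of the nondiabetic, 1 by a flag of the diabetic array). Log2 intensities were scaled to the 75th percentile of an array's non-control spots, and spots of a probe were averaged. A ratio needs both arrays well above background. Named probes are the 5 brightest, the 5 largest rises and falls, the 5 loci per direction with all probes past 2-fold and the largest smallest change, and 3 bounds per direction. The 2-fold and 4-fold limits, members, lists and rules were chosen with earlier results of these data known. Alternatives were other detection flags, normexp (offset 50, on median intensities), quantile, median centring, loess, the authors' values, other dim-probe filters, NM_ probes, merged loci and other distances. Steps were tested on simulated data, in Python 3.11.15 (numpy 2.4.6, pandas 2.3.3, scipy 1.17.1) and R 4.3.3 (limma 3.58.1).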

Additional observations from a re-analysis of the deposited data

How the results depend on the processing

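Detection depended on the flag: 79.8% of lincRNA probes on the nondiabetic and 81.4% on the diabetic array passed the weaker flag, and 79.6% and 81.2% lay above the 95th percentile of the negative controls. Under normexp, whose offset of 50 draws dim probes together by construction, the log2 difference of medians from gene probes moved from -0.65 and -0.67 to -0.41 and -0.44. Probes at least 2-fold higher and lower numbered 284 and 339 and those past 4-fold 23 and 32, and 63.2% of lincRNA loci had probes of the same direction. With no filter on dim probes the counts were 2007 and 2031, and 709 and 738. With intensities above 4 times the lowest well above background they were 396 and 427, and 55 and 93. The excess of lincRNA over gene probes past 2-fold, 1.38 percentage points, became -0.18 against NM_ probes alone. With the next probe in the brightest signal group, 67.0% of loci had the same direction and r was 0.51. The cause of this last shift was not tested. Quantile normalization, centring, loess and the authors' values left the counts past 2-fold and 4-fold within 1.5 times. Centring and the authors' values shift every log2 ratio by 1 constant, so they check only a common shift. Of 205 named ratios past 2-fold, quantile normalization, centring, loess and the authors' values kept 203, 203, 201 and 203 past it, against 118 under normexp. Across normexp, quantile normalization, centring, loess and the authors' values, 0 of these 205 ratios reversed in sign. Named ratios below 2-fold were not checked for a change of sign. Replicates could not be left out in turn, as there was 1 array for each condition. No paired analysis was possible because the design has 1 sample on each side. Signal over background limits the ratios: the 5458 lincRNA probes well above background on neither array have none, and the 752 and 1061 on one array only have at most a bound, and no lincRNA probe has a spot spread of its own.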
